A study of Mus musculus with 12 samples.

Results

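RNA from genes of microglia and macrophages was measured in cultures prepared as astrocytes, and 33 such genes were followed across the study's 4 groups. They were taken by gene name from a list of known microglia and macrophage genes, and all 33 were found among the 32742 genes of the deposited table. The list was chosen with earlier results of these data known. By their known roles the 33 genes were divided into 16 genes of microglial or myeloid identity, 8 lysosomal and activation genes, 7 genes of complement C1q and Fc receptors, and 2 genes of border macrophages. The cells were primary astrocytes grown from the midbrain of newborn mice, either wild type (WT) or knockout (KO) for Arrb2, the gene of the receptor adaptor beta-arrestin 2. Each genotype was kept for 24 h in phosphate-buffered saline (PBS) or with MPP+ at 500 µM, with the culture age given as Day 14, and each of the 4 groups held 3 samples. MPP+ is the active metabolite of the neurotoxin MPTP and blocks complex I of mitochondria. All 12 cultures began as mixed glia in medium with fetal bovine serum, were put on a shaker for 6 h (220 rpm) to take off microglia and other cells, and were given by the labels as over 95% astrocytes by staining for GFAP. The labels do not give the strain, the allele, or whether samples of a group came from separate litters or cultures, so the tests measure the spread between these samples, which may be technical.

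Microglia are the resident macrophages of the brain. They depend on signals through the receptor Csf1r, and the transcription factors PU.1 (gene Spi1) and Irf8 set up their gene expression. In the healthy brain they carry surface receptors such as P2ry12, Tmem119 and Cx3cr1, which tend to be reduced when the cells are activated or grown in culture. Their lysosomes, rich in Cd68 and cathepsin S, digest what the cells engulf, and they are the main makers of complement C1q in the brain. In astrocyte cultures they grow on top of the astrocyte layer, and shaking removes part of them. In RNA from a whole culture, fewer microglia and less RNA per cell cannot be told apart. RNA of these genes from other cells of the culture cannot be told apart from that of microglia either.

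The 12 libraries held 64249029 to 69865569 counts, and the 33 genes took 0.155% to 0.239% of the counts in wild type with PBS, 0.0778% to 0.112% in wild type with MPP+, 0.0950% to 0.134% in the knockout with PBS and 0.0423% to 0.0676% in the knockout with MPP+. Arrb2 itself was at 6.83 to 9.75 FPKM (fragment counts scaled by the authors for transcript length and library depth) in wild type with PBS and 4.18 to 4.94 in the knockout with PBS, and its log2 difference was -0.83 ± 0.16 (adjusted p = 0.0084), so the libraries labelled knockout kept part of its RNA. Summed over 10 astrocyte markers, levels were 1115 to 1256 FPKM in wild type with PBS, 304 to 361 in wild type with MPP+, 778 to 997 in the knockout with PBS and 262 to 304 in the knockout with MPP+. The sum over 5 fibroblast markers was 33.1 to 107 FPKM in wild type with PBS and 131 to 168 in the knockout with PBS, and with MPP+ it was 14.7 to 51.1 and 114 to 176. That over 8 oligodendrocyte lineage markers was 107 to 118 in wild type with PBS, 19.3 to 25.4 in wild type with MPP+, 144 to 151 in the knockout with PBS and 32.1 to 40.9 in the knockout with MPP+. The sum over 4 Y-linked genes was at most 0.0206 FPKM in the wild-type libraries and 5.67 to 19.3 in the knockout libraries. The part of these differences in the results on the 33 genes was not tested.

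Markers of other blood cells were close to 0. The 6 neutrophil markers found in the table summed to at most 0.196 FPKM in any library, the 7 lymphocyte markers to at most 0.355 and the 2 mast cell markers to at most 0.0863. Among 5 monocyte markers, whose sum ran from 1.45 to 10.1 FPKM, nearly all of the level came from Ace, which other cells also express, and Plac8 had group means of 0.06 FPKM or less. By comparison the 33 genes summed to 746 to 1148 FPKM in wild type with PBS. Libraries are named by genotype, treatment and replicate, as in WT PBS 1. Within each group, replicate 3 was the lowest library for most of the 31 members tested: 30 in wild type with PBS, 27 in wild type with MPP+, 26 in the knockout with PBS and 27 in the knockout with MPP+. The same count was not made over all genes, so it is not known whether this is particular to the members.

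In wild type with PBS the members covered a wide range of levels per length. Lyz2, the lysozyme gene of macrophages, was the highest at 373 ± 66.1 FPKM (SD, n = 3), followed by C1qb at 84.9 ± 21.7, Ctss at 81.01 ± 22.9 and C1qa at 78.8 ± 19.3, and the last 3 did not differ beyond their spread. Mpeg1, Fcrls, C1qc and Tyrobp came next, between 35.3 and 57.3 FPKM. Of the receptors typical of microglia in the living brain, Tmem119 was at 8.76 ± 2.13 FPKM, Cx3cr1 at 5.55 ± 1.33, P2ry12 at 1.999 ± 0.444, P2ry13 at 0.887 ± 0.3198 and Gpr34 at 0.422 ± 0.187. Siglech, a sialic acid binding receptor of microglia, had 12 counts in WT PBS 2, 4 counts in KO PBS 3 and 0 counts elsewhere. Cd163, the scavenger receptor of border macrophages, had 8 and 4 counts in WT MPP+ 2 and 3, 8 counts in KO PBS 3 and 0 counts elsewhere. A count of 0 allows up to 3 counts in a library, or 0.0429 to 0.0467 CPM (counts scaled to the library total), for counting error only. These 2 genes did not pass the filter on low counts, and the other 31 were tested.

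**Figure D1:**
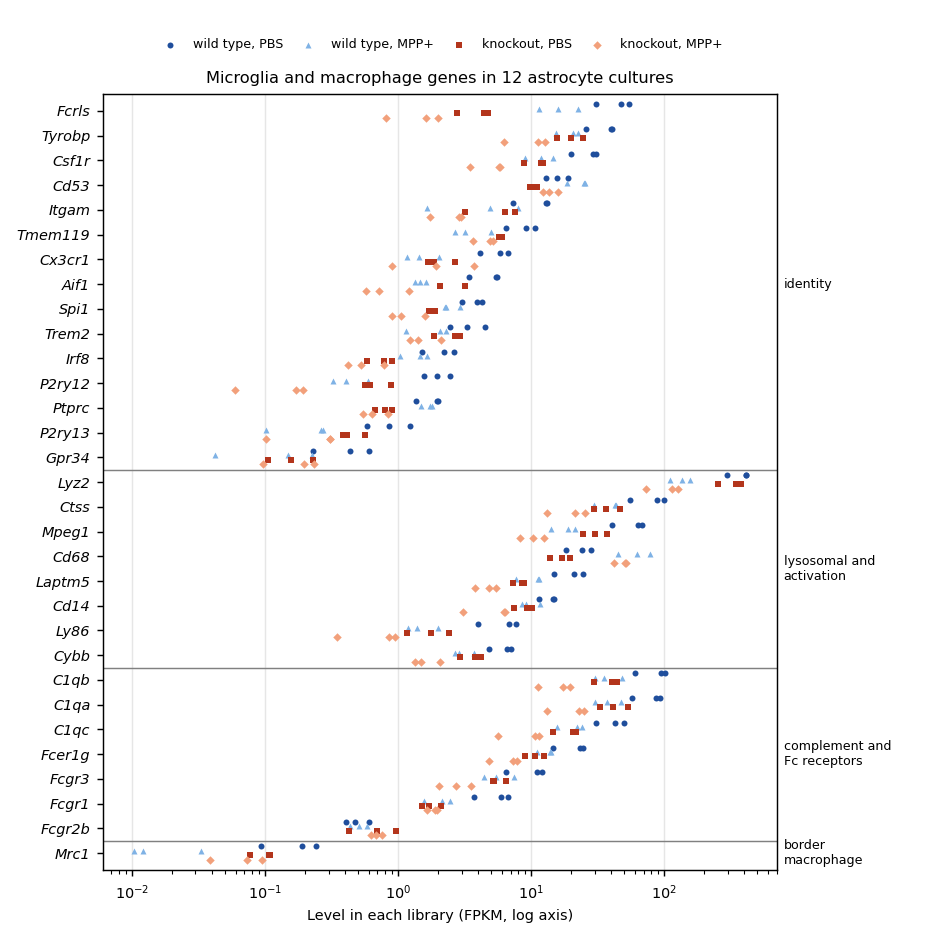
Level of each of the 31 tested members in each of the 12 libraries, in FPKM on a log axis, ordered by role and by mean level in wild type with PBS. Each point is 1 library, and colours and shapes mark the 4 groups. Most members lie highest in wild type with PBS and lowest in the knockout with MPP+, while Cd68 lies higher in both MPP+ groups.

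The effect of MPP+ was compared with PBS within each genotype. Csf1r, the receptor for the survival factors Csf1 and Il34, was at 30.6, 28.99 and 19.8 FPKM in wild type with PBS and 14.7, 11.8 and 8.93 with MPP+. Knockout values of Csf1r were 12.2, 11.8 and 8.77 with PBS and 5.88, 5.75 and 3.45 with MPP+. The groups did not overlap between treatments in either genotype, and the log2 fold change with MPP+ was -1.21 ± 0.24 (adjusted p = 0.0012) in wild type and -1.20 ± 0.24 (adjusted p = 0.0016) in the knockout. In the annotation, 873 of the 5774 exon bases of Csf1r (15.1%) lie in Hmgxb3 on the opposite strand. It is not known whether counting used strand, so reads of Hmgxb3 may be part of these values. Fold changes are on the log2 scale with their standard errors, from a quasi-likelihood test of the counts in edgeR over all 12 libraries. Calls are those with an adjusted p under 0.05 (Benjamini-Hochberg, 21129 genes tested). Replicates were not paired, because the labels do not say that a replicate number marks a shared culture. Y-linked sums were, however, 5.67 and 6.18 FPKM in replicate 1 of both knockout groups and 18.3 to 19.3 in the other knockout libraries. Whether the numbers mark shared cultures is therefore not settled. Fits with a block for replicate (the replicate block) added 13 calls of members and lost 1, as named at the end. For the MPP+ effects and their difference between genotypes, the block was each replicate number within each genotype. For the comparisons of genotypes it was the replicate number alone. In wild type 25 of the 31 tested members fell with MPP+, against 28.4% of all genes tested called lower, and 2 rose, against 26.8% called higher. In the knockout 18 of 31 fell, against 24.7% of all genes, and 1 rose, against 23.1%. The median log2 fold change of the members was -1.11 in wild type and -0.98 in the knockout, beside -0.038 and -0.035 over all tested genes.

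Every role held genes that fell in wild type. Of the 15 identity genes tested, 12 fell and 1 rose in wild type, while 6 fell in the knockout. Of the 8 lysosomal and activation genes, 6 fell and 1 rose in wild type, and 7 fell and 1 rose in the knockout. Of the 7 complement and Fc receptor genes, 6 fell in wild type and 5 in the knockout. The identity genes had a median of -1.25 in wild type and -0.72 in the knockout, and the lysosomal and activation genes had -1.07 and -1.10. No member was called for the difference between the genotypes in the MPP+ effect, as given further on.

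**Figure D2:**
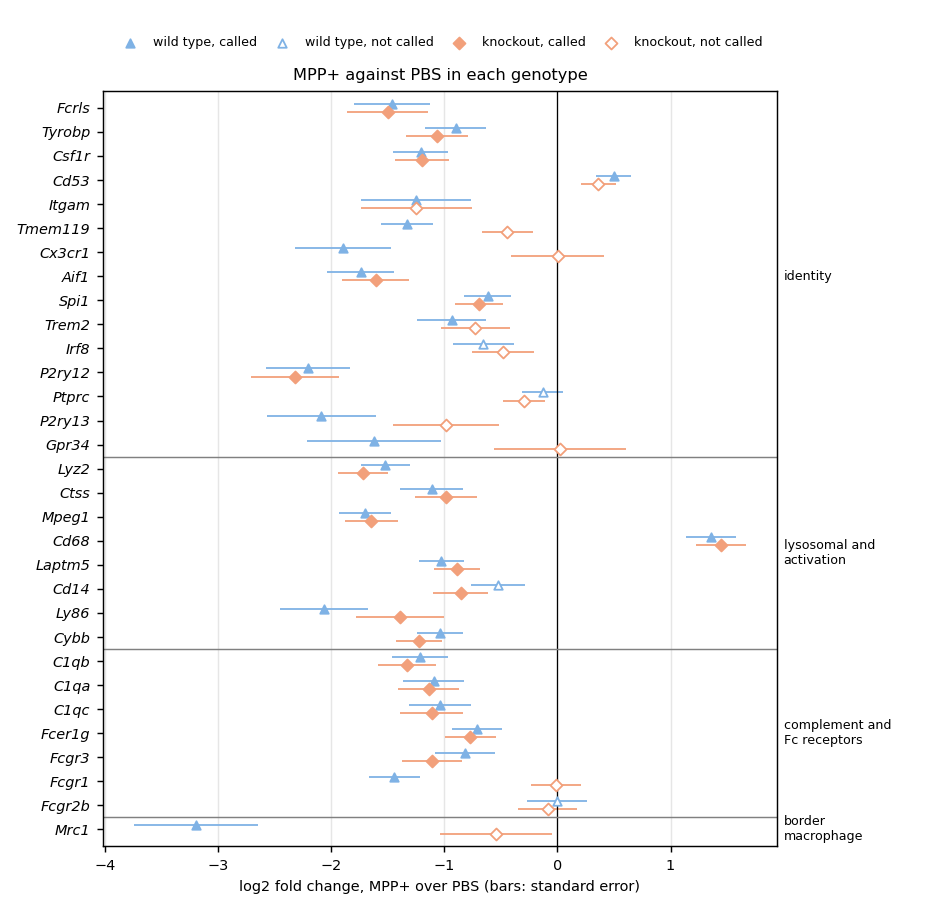
log2 fold change of MPP+ over PBS for the 31 tested members in wild type (triangles) and in the knockout (diamonds), with standard errors as bars. Filled symbols mark an adjusted p under 0.05 in edgeR over 21129 genes. Cd68 stands apart on the right at 1.36 and 1.45, and Cd53 is the other member above 0 in both genotypes.

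In wild type, 19 of the 27 calls held when any 1 of the 12 libraries was left out, and the count of calls then ran from 20 to 29. Over all genes, 5461 of 21873 were called lower without WT MPP+ 3, where 20 members were called. Without KO MPP+ 3, where 29 were, it was 6062 of 21880, beside 6011 of 21129 with all libraries. Without WT PBS 1, calls were lost for Spi1, Gpr34, Itgam, Trem2, Fcgr3 and Fcer1g (adjusted p from 0.0613 to 0.128). Without WT PBS 2 they were lost for Spi1, Gpr34, Cd53, Fcgr3 and Fcer1g (0.0578 to 0.0828), and without WT PBS 3 for Itgam and Cd53 (0.0881 to 0.114). Without WT MPP+ 1 the call was lost for Cd53 (0.0529), without WT MPP+ 2 for Spi1, Gpr34, Itgam, Cd53 and Fcgr3 (0.0731 to 0.0931), and without WT MPP+ 3 for Spi1, Gpr34, Itgam, Trem2, Tyrobp, Fcgr3 and Fcer1g (0.0597 to 0.105). The call of Itgam was also lost without KO PBS 1 or 3 (0.0503 and 0.0579) and without KO MPP+ 1 or 2 (0.0574 and 0.0582).

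In the knockout, 14 of the 19 calls held in all 12 of these fits, with 16 to 21 calls. Over all genes, 4567 of 21839 were called lower without KO PBS 2, where 16 members were called. Without WT MPP+ 3, where 21 were, it was 5240 of 21873, beside 5212 of 21129 with all libraries. Without KO PBS 2, calls were lost for Spi1, Ctss, Cd14 and Ly86 (adjusted p from 0.05 to 0.0547), and without KO PBS 1 for Fcer1g (0.0665). Without KO MPP+ 2 the call of Spi1 was lost (0.066), and without KO MPP+ 3 those of Spi1 and Fcer1g (0.0585 to 0.0679).

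Knockout and wild-type cultures were then compared under the same treatment, where genotype cannot be separated from the difference in Y-linked RNA given above. Fcrls, a scavenger receptor of the Fc receptor family that marks mouse microglia (ENSMUSG00000015852, chr3:87250758-87263738, minus strand), was at 54.7, 47.2 and 30.5 FPKM in wild type with PBS and 22.4, 15.8 and 11.5 with MPP+. Knockout values of Fcrls were 4.39, 4.78 and 2.77 with PBS and 1.996, 1.63 and 0.806 with MPP+. The knockout libraries lay below every wild-type library in both treatments, and the log2 difference was -3.42 ± 0.37 (adjusted p = 0.00031) with PBS and -3.46 ± 0.37 (adjusted p = 0.00024) with MPP+. In PBS 16 of the 31 tested members were lower in the knockout, against 5.66% of all genes tested, and 0 were higher in edgeR, against 5.34%, with 0 higher in DESeq2 and 0 at an unadjusted p under 0.05 in edgeR. In MPP+ 18 were lower, against 9.0%, and 1 was higher, against 7.87%. The median log2 difference of the members was -0.92 with PBS and -0.90 with MPP+, beside -0.0015 and -0.017 over all tested genes. The 2 comparisons hold different libraries.

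Identity genes lower in the knockout numbered 7 of 15 with PBS and 8 of 15 with MPP+, lysosomal and activation genes 5 of 8 in each, and complement and Fc receptor genes 4 and 5 of 7. Several called members lay near -1 on the log2 scale: with PBS Csf1r was at -1.23 ± 0.24, Laptm5 at -1.24 ± 0.20, C1qb at -1.11 ± 0.25 and Ctss at -1.06 ± 0.28. Fcrls lay furthest from 0 in both treatments. Its level relative to Csf1r, a ratio of FPKM values chosen after the values were seen, was 1.65 ± 0.125 (SD, n = 3) in wild type with PBS, 1.38 ± 0.125 in wild type with MPP+, 0.360 ± 0.0445 in the knockout with PBS and 0.286 ± 0.0530 in the knockout with MPP+. Fcrls was thus lower in the knockout beyond the change of Csf1r in the same libraries, a difference between genes that was not tested.

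**Figure D3:**
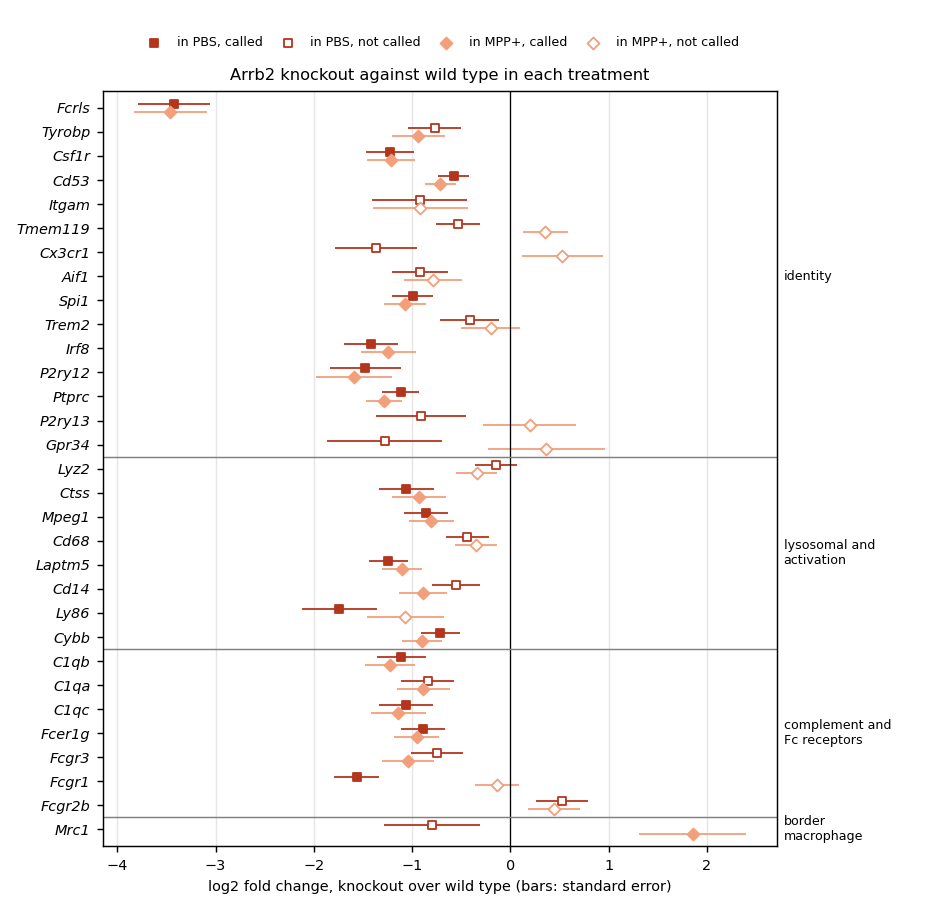
log2 fold change of Arrb2 knockout over wild type for the 31 tested members with PBS (squares) and with MPP+ (diamonds), with standard errors as bars. Filled symbols mark an adjusted p under 0.05 in edgeR over 21129 genes. Fcrls lies furthest to the left at -3.42 and -3.46, and Mrc1 with MPP+ is the only filled symbol on the right.

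The count of calls between genotypes depended on single libraries. In PBS, 6 of the 16 calls held in all 12 fits with 1 library left out, those of Csf1r, Irf8, Fcrls, Ptprc, Laptm5 and Fcgr1. There were 8 calls without WT PBS 1, 6 without WT PBS 2, 9 without KO PBS 1 and 6 without KO PBS 3. Calls over all genes fell too, from the 5.66% above to 4.28%, 2.72%, 3.08% and 2.97% called lower in the same order. The 10 calls lost without WT PBS 2 and without KO PBS 3 were in both cases those of Spi1, P2ry12, Cd53, Ctss, Mpeg1, Cybb, Ly86, C1qb, C1qc and Fcer1g (adjusted p from 0.0528 to 0.126 and from 0.0508 to 0.145). Without WT PBS 1, 8 of these were lost, with Spi1 and Ly86 kept (0.0538 to 0.124), and without KO PBS 1, 7 were lost, with Spi1, C1qb and Fcer1g kept (0.0569 to 0.105). The calls of Cd53 and Fcer1g were lost without KO PBS 2 (0.0529 to 0.0608), those of Cd53 and Cybb without KO MPP+ 2 (0.0536 to 0.0544), and that of Cybb without WT MPP+ 2 or 3 (0.0525 and 0.051).

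In MPP+, 8 of the 19 calls held in all 12 fits, those of Csf1r, Spi1, Irf8, P2ry12, Fcrls, Ptprc, Laptm5 and C1qb. There were 11 calls without WT MPP+ 2 and 11 without KO MPP+ 3, and of all genes 4.7% and 4.76% were then called lower, beside 9.0% above. Without WT MPP+ 2 the lost calls were those of Tyrobp, Ctss, Mpeg1, Cd14, C1qa, C1qc, Fcer1g and Mrc1 (adjusted p from 0.0531 to 0.13), and without KO MPP+ 3 those of Cd53, Tyrobp, Ctss, Mpeg1, Cybb, C1qa, Fcgr3 and Fcer1g (0.0516 to 0.133). Tyrobp, Ctss, Mpeg1, Cd14, C1qa and Fcgr3 lost their calls without WT MPP+ 1 (0.0541 to 0.104), Cd14, C1qa, Fcgr3 and Mrc1 without WT MPP+ 3 (0.0541 to 0.13), C1qa and Mrc1 without KO MPP+ 1 (0.0535 to 0.127), and Tyrobp, Ctss, Mpeg1, C1qa, Fcgr3 and Mrc1 without KO MPP+ 2 (0.058 to 0.0776). Some calls were also lost when a library with PBS was left out, with adjusted p from 0.0502 to 0.0645: Tyrobp and C1qa were lost without WT PBS 1, these 2 with Ctss and Mrc1 without WT PBS 2, Tyrobp, Ctss, Mpeg1, C1qa and Mrc1 without KO PBS 1, Mrc1 without KO PBS 2, and Ctss, C1qa and Mrc1 without KO PBS 3. A fit of the 2 MPP+ groups alone called 12 members, all of them lower. It called 980 of 19190 tested genes lower, beside 1902 of 21129 in the fit of all libraries.

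Among the identity genes were 2 transcription factors. Spi1, which encodes PU.1, was at 3.92, 4.26 and 3.02 FPKM in wild type with PBS and 2.94, 2.31 and 2.26 with MPP+. Knockout values of Spi1 were 1.82, 1.88 and 1.72 with PBS and 1.6001, 1.04 and 0.892 with MPP+. Spi1 fell with MPP+ in both genotypes, at a log2 change of -0.62 ± 0.21 and -0.69 ± 0.21, and was lower in the knockout, at -0.99 ± 0.21 with PBS and -1.07 ± 0.21 with MPP+. Irf8 was at 2.62, 2.199 and 1.51 FPKM in wild type with PBS and 1.64, 1.47 and 1.03 with MPP+. Knockout values of Irf8 were 0.899, 0.588 and 0.788 with PBS and 0.7797, 0.527 and 0.422 with MPP+. Its MPP+ changes of -0.65 ± 0.27 (adjusted p = 0.059) in wild type and -0.48 ± 0.27 (adjusted p = 0.18) in the knockout were not called, and it was lower in the knockout, at -1.42 ± 0.28 (adjusted p = 0.0080) with PBS and -1.24 ± 0.28 (adjusted p = 0.012) with MPP+. The wild-type change was called in some fits, without WT PBS 3 (adjusted p = 0.0232), without KO MPP+ 1 (0.0405), without KO MPP+ 3 and in DESeq2 among them.

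Of the surface receptors of resting microglia, Cx3cr1, the receptor for fractalkine, was at 6.74, 5.79 and 4.11 FPKM in wild type with PBS and 2.02, 1.16 and 1.43 with MPP+. Knockout values of Cx3cr1 were 1.85, 2.68 and 1.69 with PBS and 3.75, 0.907 and 1.92 with MPP+. In wild type all MPP+ libraries lay below all PBS libraries, while in the knockout the MPP+ libraries surrounded the PBS libraries, with replicate 1 the highest at 3.75 FPKM. The fold change was -1.90 ± 0.42 (adjusted p = 0.0025) in wild type and 0.0015 ± 0.41 (adjusted p = 0.999) in the knockout, and without KO MPP+ 1 the latter was -0.63 (adjusted p = 0.17). The knockout with PBS was at -1.37 ± 0.42 (adjusted p = 0.058) against wild type, which was called without KO MPP+ 1 (adjusted p = 0.0207) or 2 (0.0181) and in DESeq2. In the annotation the long span of Cx3cr1 holds several other genes, among them Wdr48, Gorasp1, Csrnp1 and Ttc21a, none of which shares exon bases with it. One antisense transcript, Gm33858, shares 1.73% of its exon bases.

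P2ry12, the ADP receptor that guides microglial processes, was at 2.46, 1.97 and 1.57 FPKM in wild type with PBS and 0.592, 0.407 and 0.323 with MPP+. Knockout values of P2ry12 were 0.616, 0.884 and 0.563 with PBS and 0.191, 0.171 and 0.0594 with MPP+. P2ry12 fell with MPP+, at -2.20 ± 0.37 and -2.32 ± 0.39, and was lower in the knockout, at -1.48 ± 0.36 and -1.59 ± 0.39. Its neighbour P2ry13, a related purine receptor, was at 1.22, 0.857 and 0.583 FPKM in wild type with PBS and 0.272, 0.262 and 0.102 with MPP+. Knockout values of P2ry13 were 0.562, 0.387 and 0.413 with PBS and 0.309, 0.3102 and 0.101 with MPP+. P2ry13 fell with MPP+ in wild type, at -2.09 ± 0.48 (adjusted p = 0.0031), and its change in the knockout was -0.98 ± 0.47 (adjusted p = 0.11). With the replicate block the change in the knockout was called (adjusted p = 0.0476). Both genes lie within Med12l on the opposite strand, which had no call in either treatment contrast. Whether the counting used strand is not given in the sources used here.

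Tmem119, a membrane protein of microglia, was at 10.7, 9.17 and 6.46 FPKM in wild type with PBS and 4.96, 3.17 and 2.67 with MPP+. Knockout values of Tmem119 were 5.87, 5.73 and 5.99 with PBS and 5.14, 3.64 and 4.87 with MPP+. In wild type the MPP+ libraries lay below the PBS libraries, and in the knockout all MPP+ libraries also lay below, by less. The fold changes were -1.33 ± 0.23 (adjusted p = 0.00042) and -0.44 ± 0.23 (adjusted p = 0.13), and the knockout did not pass the test against wild type with PBS (-0.53 ± 0.22 (adjusted p = 0.17)). The change with MPP+ in the knockout was called with the replicate block and in a fit of its 2 groups alone. Gpr34, a receptor for lysophosphatidylserine inside the span of Cask on the opposite strand, was at 0.602, 0.436 and 0.228 FPKM in wild type with PBS and 0.225, 0.148 and 0.0424 with MPP+. Knockout values of Gpr34 were 0.231, 0.156 and 0.106 with PBS and 0.233, 0.198 and 0.0967 with MPP+. Gpr34 fell with MPP+ in wild type, at -1.62 ± 0.59 (adjusted p = 0.036), and its value in the knockout was 0.024 ± 0.59 (adjusted p = 0.9795).

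Fcrls, given above, fell with MPP+, at -1.46 ± 0.34 in wild type and -1.50 ± 0.35 in the knockout. Aif1, which encodes the actin-binding protein Iba1 used to stain microglia, was at 5.56, 5.43 and 3.43 FPKM in wild type with PBS and 1.62, 1.45 and 1.33 with MPP+. Knockout values of Aif1 were 2.06, 3.19 and 2.08 with PBS and 1.21, 0.713 and 0.579 with MPP+. Aif1 fell with MPP+, at -1.74 ± 0.29 (adjusted p = 0.00036) and -1.61 ± 0.30 (adjusted p = 0.00086), and its genotype differences of -0.92 ± 0.29 (adjusted p = 0.062) with PBS and -0.79 ± 0.29 (adjusted p = 0.090) with MPP+ were not called. They were called in DESeq2 and, with PBS, without WT PBS 3, KO PBS 2 or KO MPP+ 1 (lowest adjusted p = 0.0331), and with MPP+ without KO MPP+ 1 (0.0285).

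Itgam, the integrin chain CD11b (ENSMUSG00000030786, chr7:128062640-128118491, plus strand), was at 12.97, 7.2999 and 13.2 FPKM in wild type with PBS and 7.98, 4.94 and 1.66 with MPP+. Knockout values of Itgam were 7.55, 3.17 and 6.31 with PBS and 2.96, 2.87 and 1.74 with MPP+. Libraries of the same group differed widely, and 3450 of its 5024 annotated exon bases (68.7%) lie in Gm49368 on the same strand. Gm49368 held 3121, 3173 and 0 counts in wild type with PBS, 0, 1 and 1034 in wild type with MPP+, 0, 2188 and 0 in the knockout with PBS, and 0, 0 and 3 in the knockout with MPP+. Counted together, a choice made after the values were seen, the pair held 7988, 5949 and 5126 counts in wild type with PBS, 2846, 1810 and 1630 in wild type with MPP+, 2921, 3415 and 2399 in the knockout with PBS, and 1148, 1097 and 647 in the knockout with MPP+. The groups then no longer overlapped between treatments within a genotype or between genotypes within a treatment. The fold change with MPP+ was -1.25 ± 0.48 (adjusted p = 0.046) and -1.25 ± 0.49 (adjusted p = 0.055) for Itgam alone, and -1.57 (adjusted p = 0.00031) and -1.66 (0.00028) for the pair. Between genotypes it was -0.92 ± 0.48 (adjusted p = 0.28) with PBS and -0.92 ± 0.49 (adjusted p = 0.23) with MPP+ alone, and -1.09 (0.0189) and -1.18 (0.0108) for the pair.

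Ptprc, the leukocyte phosphatase CD45, was at 1.97, 1.997 and 1.36 FPKM in wild type with PBS and 1.81, 1.72 and 1.47 with MPP+. Knockout values of Ptprc were 0.798, 0.897 and 0.674 with PBS and 0.846, 0.6404 and 0.546 with MPP+. Wild-type libraries with MPP+ lay within the range of those with PBS, with fold changes of -0.13 ± 0.18 (adjusted p = 0.58) in wild type and -0.30 ± 0.18 (adjusted p = 0.21) in the knockout. All knockout libraries lay below all wild-type libraries, and Ptprc was lower in the knockout, at -1.12 ± 0.19 (adjusted p = 0.0038) with PBS and -1.29 ± 0.19 (adjusted p = 0.0013) with MPP+.

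Cd53, a tetraspanin of leukocyte membranes (ENSMUSG00000040747, chr3:106759921-106790149, minus strand), was at 19.1, 15.6 and 12.9 FPKM in wild type with PBS and 25.1, 25.5 and 18.5 with MPP+. Knockout values of Cd53 were 10.1, 10.98 and 9.796 with PBS and 15.99, 13.5 and 12.3 with MPP+. It rose with MPP+ in wild type, at 0.50 ± 0.16 (adjusted p = 0.019), although WT MPP+ 3 lay below WT PBS 1. In the knockout all MPP+ libraries lay above all PBS libraries, and its fold change of 0.36 ± 0.16 (adjusted p = 0.080) was not called, though it was without WT PBS 1 or 3 (adjusted p = 0.0461 and 0.047). Cd53 was lower in the knockout, at -0.58 ± 0.16 (adjusted p = 0.038) with PBS and -0.71 ± 0.16 (adjusted p = 0.011) with MPP+, so it stood with the other members by genotype and apart from most of them by treatment.

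Trem2, a receptor for lipids on microglia, was at 4.48, 3.31 and 2.47 FPKM in wild type with PBS and 2.303, 2.07 and 1.16 with MPP+. Knockout values of Trem2 were 2.94, 2.65 and 1.85 with PBS and 2.11, 1.403 and 1.22 with MPP+. Trem2 fell with MPP+ in wild type, at -0.93 ± 0.30 (adjusted p = 0.021). Its change in the knockout was -0.72 ± 0.30 (adjusted p = 0.070). This was called without WT MPP+ 3 (adjusted p = 0.0446) or KO MPP+ 1 (0.031), and in DESeq2 and the replicate block among other fits. Between genotypes Trem2 was at -0.41 ± 0.30 (adjusted p = 0.46) with PBS and -0.20 ± 0.30 (adjusted p = 0.72) with MPP+. Tyrobp, the signalling adaptor of Trem2, was at 40.2, 39.9 and 25.9 FPKM in wild type with PBS and 22.6, 20.7 and 15.3 with MPP+. Knockout values of Tyrobp were 19.8, 24.6 and 15.6 with PBS and 12.6, 11.3 and 6.303 with MPP+. Tyrobp fell with MPP+, at -0.90 ± 0.27 and -1.06 ± 0.27, was lower in the knockout with MPP+, at -0.94 ± 0.27 (adjusted p = 0.037), and with PBS was at -0.77 ± 0.27 (adjusted p = 0.095). The difference with PBS was called in DESeq2, with the replicate block and without KO MPP+ 3 (adjusted p = 0.0451).

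Among the lysosomal and activation genes, Cd68, a glycoprotein of macrophage lysosomes (ENSMUSG00000018774, chr11:69664213-69666153, minus strand), was at 28.3, 23.9 and 18.4 FPKM in wild type with PBS and 44.6, 78.2 and 62.3 with MPP+. Knockout values of Cd68 were 17.003, 19.4 and 13.8 with PBS and 51.1, 51.7 and 41.7 with MPP+. Every MPP+ library lay above every PBS library in both genotypes. The log2 fold change was 1.36 ± 0.22 (adjusted p = 0.00028) in wild type and 1.45 ± 0.22 (adjusted p = 0.00023) in the knockout, a rise while 7 of the 8 genes of its role had negative fold changes. Both calls held in each fit with 1 library left out. Between genotypes the difference was -0.44 ± 0.22 (adjusted p = 0.25) with PBS and -0.35 ± 0.22 (adjusted p = 0.31) with MPP+. Its level relative to Csf1r, a ratio chosen after the values were seen, was 0.894 ± 0.0601 (SD, n = 3) in wild type with PBS, 5.55 ± 2.19 in wild type with MPP+, 1.54 ± 0.130 in the knockout with PBS and 9.93 ± 1.89 in the knockout with MPP+. A higher ratio with MPP+ was not particular to Cd68. Means in the same order were 0.606, 1.985, 0.957 and 2.88 for Cd53, and 0.0674, 0.145, 0.0727 and 0.138 for Ptprc. Those of C1qa were 2.97, 3.25, 3.88 and 4.03. Means of Lyz2, Fcrls and Mpeg1 were lower with MPP+ in both genotypes, and that of Tmem119 in wild type only. Which cells of the cultures the Cd68 RNA came from was not tested. Cd68 lies 0.767 Mb from Arrb2 on chromosome 11.

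Start-site windows of Cd68, of Cd53, the other member that rose, and of Fcrls and Laptm5, which fell with MPP+ and were lower in the knockout, are shown to set the letters around these start sites side by side. The sequences are from RefSeq for GRCm38.p6, reach from 250 bases before to 50 bases after the annotated start, and were available for 26 of the 33 members. Capitals mark GAGGAAG, the core bound by PU.1, and TGAGTCA, the AP-1 site, each on either strand, so that CTTCCTC is the former on the minus strand of the gene. The windows lie at chr11:69666121-69666420, minus strand for Cd68, chr3:106790100-106790399, minus strand for Cd53, chr3:87263475-87263774, minus strand for Fcrls and chr4:130913066-130913365, plus strand for Laptm5.
Cd68: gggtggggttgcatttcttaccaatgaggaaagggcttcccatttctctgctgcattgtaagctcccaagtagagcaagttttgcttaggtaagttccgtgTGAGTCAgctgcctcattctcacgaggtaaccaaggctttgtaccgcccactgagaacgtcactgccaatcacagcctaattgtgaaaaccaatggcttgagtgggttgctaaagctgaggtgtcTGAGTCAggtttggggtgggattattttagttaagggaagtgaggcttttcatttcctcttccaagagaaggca
Cd53: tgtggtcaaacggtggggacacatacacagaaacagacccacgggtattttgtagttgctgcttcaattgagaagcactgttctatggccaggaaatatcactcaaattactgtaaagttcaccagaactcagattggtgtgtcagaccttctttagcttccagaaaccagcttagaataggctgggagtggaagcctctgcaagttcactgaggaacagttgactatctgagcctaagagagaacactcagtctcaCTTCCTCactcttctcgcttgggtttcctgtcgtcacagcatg
Fcrls: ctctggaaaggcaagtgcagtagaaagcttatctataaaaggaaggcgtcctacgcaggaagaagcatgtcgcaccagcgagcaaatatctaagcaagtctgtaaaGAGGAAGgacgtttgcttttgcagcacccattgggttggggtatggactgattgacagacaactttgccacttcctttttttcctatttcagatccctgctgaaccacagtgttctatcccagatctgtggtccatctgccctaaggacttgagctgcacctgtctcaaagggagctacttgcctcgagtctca
Laptm5: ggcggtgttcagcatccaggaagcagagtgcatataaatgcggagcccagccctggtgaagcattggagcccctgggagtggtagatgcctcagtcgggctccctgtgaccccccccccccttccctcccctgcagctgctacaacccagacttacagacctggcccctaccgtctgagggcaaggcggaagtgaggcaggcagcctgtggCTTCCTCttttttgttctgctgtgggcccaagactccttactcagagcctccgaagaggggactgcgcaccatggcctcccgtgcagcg
GAGGAAG was present in 11 of the 26 members with a window, beside 13.6% of 32851 windows of all genes, and AGGAAGT, an overlapping ETS motif, in 10 of 26 beside 9.35%. A member was counted if any of its windows matched, and Ptprc, Fcgr3 and Irf8 had more than 1. The shares over all genes are per window, so the units differ. The Cd68 window held no GAGGAAG and had TGAGTCA at 149 and 24 bases before the start, and it was the only member window with that motif, which 5.20% of all windows hold. CACGTG, the E-box bound by Tfeb, was found in the windows of P2ry12 and Siglech, beside 7.15% of all windows, and TGATGNAA, the composite site of Atf4, in none of the 26, beside 3.97%. Fcrls and Laptm5 both held GAGGAAG, but Mpeg1, C1qb, Cybb, Fcer1g and P2ry12, also called lower with MPP+ and in the knockout throughout, did not. Ctss and C1qc, called in the same way, held it, as did Cd53, which rose. The windows shown therefore do not set falling members apart from rising ones by this motif. A match of letters is not evidence of binding.

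Lyz2 (ENSMUSG00000069516, chr10:117277331-117282321, minus strand) was at 413, 409 and 297 FPKM in wild type with PBS and 156, 135 and 111 with MPP+. Knockout values of Lyz2 were 345, 378 and 255 with PBS and 126, 114 and 73.2 with MPP+. Lyz2 fell with MPP+, at -1.52 ± 0.22 (adjusted p = 0.0001) in wild type and -1.72 ± 0.22 (adjusted p = 5.4e-05) in the knockout. Between genotypes the libraries overlapped, with differences of -0.15 ± 0.21 (adjusted p = 0.76) with PBS and -0.35 ± 0.21 (adjusted p = 0.31) with MPP+ that were not called. The difference with MPP+ was called with the replicate block (adjusted p = 0.0144). Relative to Csf1r in the same library, again a ratio chosen after the values were seen, Lyz2 was at 14.2 ± 0.756 (SD, n = 3) in wild type with PBS, 11.5 ± 0.922 in wild type with MPP+, 29.8 ± 1.93 in the knockout with PBS and 20.8 ± 0.838 in the knockout with MPP+. The near-identical Lyz1 had group means of 0.08 to 0.15 FPKM, and how reads common to both were counted is not given in the sources used here.

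**Figure D4:**
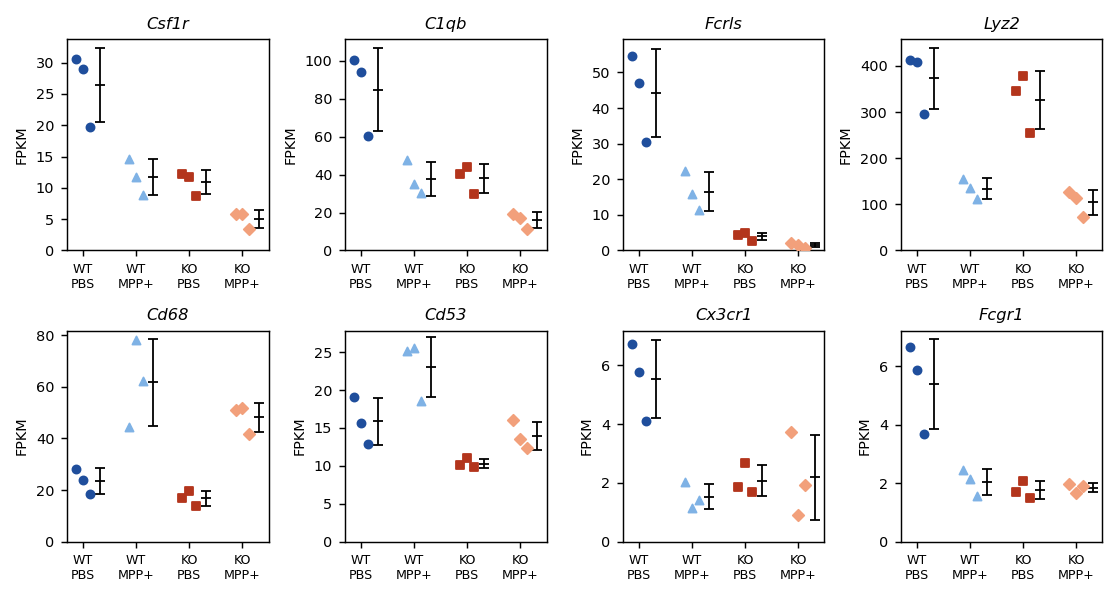
Level of 8 members in each library, in FPKM with each vertical axis from 0, and the mean and SD (n = 3) of each group beside its 3 points, which stand in the order of replicates 1 to 3. Csf1r and C1qb are lower with MPP+ and lower in the knockout, Fcrls is at 4.78 FPKM or less in all knockout libraries, Lyz2 differs by treatment and overlaps between genotypes, Cd68 and Cd53 are higher with MPP+, and Cx3cr1 and Fcgr1 are lower with MPP+ in wild type.

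Ctss, the lysosomal protease cathepsin S, was at 99.6, 88.02 and 55.4 FPKM in wild type with PBS and 43.5, 42.6 and 29.6 with MPP+. Knockout values of Ctss were 36.2, 46.7 and 29.9 with PBS and 25.5, 21.5 and 13.1 with MPP+. Its fold change was -1.11 ± 0.28 in wild type and -0.98 ± 0.28 in the knockout with MPP+, and it was lower in the knockout, at -1.06 ± 0.28 with PBS and -0.93 ± 0.28 with MPP+, all 4 called. Laptm5, a lysosomal membrane protein of blood-derived cells, was at 24.6, 20.9 and 14.9 FPKM in wild type with PBS and 11.4, 11.3 and 7.76 with MPP+. Knockout values of Laptm5 were 8.56, 8.86 and 7.24 with PBS and 5.44, 4.79 and 3.81 with MPP+. It too was called in all 4, at -1.02 ± 0.20 and -0.89 ± 0.20 for MPP+ and -1.24 ± 0.20 and -1.11 ± 0.20 for genotype.

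Mpeg1, the pore-forming protein perforin-2 of macrophages, was at 68.1, 63.5 and 40.2 FPKM in wild type with PBS and 21.4, 18.9 and 14.1 with MPP+. Knockout values of Mpeg1 were 29.96, 36.8 and 24.6 with PBS and 12.4, 10.3 and 8.21 with MPP+. Mpeg1 fell, at -1.70 ± 0.23 and -1.64 ± 0.23 with MPP+ and was lower, at -0.86 ± 0.23 and -0.80 ± 0.23 in the knockout. Cybb, the catalytic chain of the NADPH oxidase of phagocytes, was at 7.08, 6.56 and 4.83 FPKM in wild type with PBS and 3.71, 2.88 and 2.67 with MPP+. Knockout values of Cybb were 3.79, 4.17 and 2.93 with PBS and 2.08, 1.496 and 1.34 with MPP+. Cybb fell, at -1.04 ± 0.20 and -1.22 ± 0.20 with MPP+ and was lower, at -0.71 ± 0.20 and -0.90 ± 0.20 in the knockout. Both genes were lower in all MPP+ libraries than in all PBS libraries of the same genotype.

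Cd14, the co-receptor for bacterial lipopolysaccharide, was at 14.9, 14.6 and 11.5 FPKM in wild type with PBS and 11.7, 8.55 and 9.12 with MPP+. Knockout values of Cd14 were 9.25, 10.2 and 7.49 with PBS and 6.21, 6.38 and 3.0999 with MPP+. The MPP+ change of -0.52 ± 0.24 (adjusted p = 0.086) in wild type was not called, though it was without KO MPP+ 3 (adjusted p = 0.0117), while that of -0.86 ± 0.24 (adjusted p = 0.012) in the knockout was. The genotype difference was -0.55 ± 0.24 (adjusted p = 0.18) with PBS, called without KO MPP+ 3 (0.039), and -0.89 ± 0.24 (adjusted p = 0.029) with MPP+. Ly86, also known as MD-1 and a partner of the receptor Cd180, was at 7.72, 6.84 and 3.97 FPKM in wild type with PBS and 1.99, 1.39 and 1.19 with MPP+. Knockout values of Ly86 were 1.77, 2.42 and 1.17 with PBS and 0.852, 0.9399 and 0.348 with MPP+. Ly86 fell with MPP+, at -2.06 ± 0.39 and -1.39 ± 0.39, was lower in the knockout with PBS, at -1.74 ± 0.38 (adjusted p = 0.015), and with MPP+ was at -1.07 ± 0.39 (adjusted p = 0.083). In DESeq2 and with the replicate block the genotype difference with MPP+ was called.

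The 3 chains of complement C1q, which starts the classical complement pathway, fell with MPP+ in both genotypes. C1qa was at 93.5, 86.03 and 56.97 FPKM in wild type with PBS, 47.1, 36.9 and 30.3 in wild type with MPP+, 41.3, 53.5 and 32.7 in the knockout with PBS, and 24.9, 22.9 and 13.3 in the knockout with MPP+. C1qb was at 101, 93.9 and 60.2 FPKM in wild type with PBS, 47.9, 35.03 and 30.3 in wild type with MPP+, 40.5, 43.9 and 29.6 in the knockout with PBS, and 19.5, 17.2 and 11.2 in the knockout with MPP+. C1qc was at 49.9, 42.9 and 30.6 FPKM in wild type with PBS, 24.1, 22.1 and 15.7 in wild type with MPP+, 20.7, 21.6 and 14.7 in the knockout with PBS, and 10.6, 11.5 and 5.59 in the knockout with MPP+. All 3 were lower in every MPP+ library than in any PBS library of the same genotype, and they fell, at -1.09 ± 0.27, -1.21 ± 0.25 and -1.04 ± 0.27 in wild type and at -1.14 ± 0.27, -1.33 ± 0.25 and -1.11 ± 0.28 in the knockout. The knockout was lower for C1qb (-1.11 ± 0.25 (adjusted p = 0.016) with PBS and -1.23 ± 0.25 (adjusted p = 0.0082) with MPP+) and C1qc (-1.07 ± 0.28 (adjusted p = 0.029) and -1.14 ± 0.28 (adjusted p = 0.018)). For C1qa the difference was -0.84 ± 0.27 (adjusted p = 0.067) with PBS, which was not called, and -0.89 ± 0.27 (adjusted p = 0.044) with MPP+, a call that was lost without any 1 of 10 of the 12 libraries (highest adjusted p = 0.133). The C1qa difference with PBS was called in DESeq2, with the replicate block and in some fits with 1 library left out.

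Of the Fc receptors, Fcgr1, the high-affinity receptor for IgG, was at 6.65, 5.89 and 3.69 FPKM in wild type with PBS and 2.44, 2.15 and 1.57 with MPP+. Knockout values of Fcgr1 were 1.71, 2.08 and 1.51 with PBS and 1.97, 1.66 and 1.91 with MPP+. Fcgr1 fell with MPP+ in wild type, at -1.44 ± 0.22 (adjusted p = 0.0002), and in the knockout, where the libraries of both treatments overlapped, its fold change was -0.012 ± 0.22 (adjusted p = 0.9726). It was lower in the knockout with PBS, at -1.56 ± 0.23 (adjusted p = 0.0018) and was at -0.14 ± 0.22 (adjusted p = 0.74) with MPP+. Fcgr3, a low-affinity activating receptor, was at 11.01, 12.1 and 6.42 FPKM in wild type with PBS and 7.396, 4.45 and 5.44 with MPP+. Knockout values of Fcgr3 were 5.27, 6.51 and 5.19 with PBS and 3.52, 2.74 and 2.02 with MPP+. Fcgr3 fell with MPP+, at -0.81 ± 0.26 and -1.11 ± 0.27, was lower in the knockout with MPP+, at -1.04 ± 0.27 (adjusted p = 0.022), and with PBS was at -0.75 ± 0.26 (adjusted p = 0.097).

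Fcer1g, the signalling chain that Fc receptors share, was at 24.3, 23.1 and 14.5 FPKM in wild type with PBS and 13.7, 13.99 and 11.1 with MPP+. Knockout values of Fcer1g were 12.5, 10.7 and 8.96 with PBS and 7.26, 7.81 and 4.805 with MPP+. It was called lower in all 4 comparisons, at -0.71 ± 0.22 and -0.77 ± 0.23 with MPP+ and at -0.89 ± 0.23 and -0.95 ± 0.23 in the knockout. Fcgr2b, the inhibitory receptor, ran from 0.409 to 0.963 FPKM over the 12 libraries and was called in no comparison. Its fold changes with MPP+ were -0.0030 ± 0.26 (adjusted p = 0.9946) and -0.086 ± 0.26 (adjusted p = 0.82), and its genotype differences were 0.52 ± 0.26 (adjusted p = 0.26) and 0.44 ± 0.26 (adjusted p = 0.29). Fcgr4, a neighbouring activating receptor outside the 33, had a group mean of 1.703 ± 0.556 FPKM in wild type with PBS and was lower in the knockout, at -1.45 ± 0.33 (adjusted p = 0.017) with PBS.

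Mrc1, the mannose receptor CD206 of border macrophages, was low throughout, at 0.243, 0.189 and 0.0925 FPKM in wild type with PBS and 0.0333, 0.0121 and 0.0103 with MPP+. Knockout values of Mrc1 were 0.108, 0.107 and 0.0765 with PBS and 0.0955, 0.0735 and 0.0386 with MPP+. Mrc1 fell with MPP+ in wild type, at -3.19 ± 0.55 (adjusted p = 0.00043) and was at -0.54 ± 0.50 (adjusted p = 0.40) in the knockout. With MPP+ it was higher in the knockout, at 1.85 ± 0.54 (adjusted p = 0.039), the only call above 0 between genotypes, and this call was lost without any 1 of 8 libraries (highest adjusted p = 0.13).

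Whether MPP+ acted differently in the 2 genotypes was tested for each member as an interaction, with positive values where the knockout had the higher fold change, and none was called in edgeR, beside 1.35% of all tested genes called in either direction. At an unadjusted p under 0.05 there were 4, beside 17.5% of all tested genes, which is no lower than the share of the members: Fcgr1 at 1.43 ± 0.32 (adjusted p = 0.055), Mrc1 at 2.65 ± 0.73 (adjusted p = 0.098), Cx3cr1 at 1.90 ± 0.58 (adjusted p = 0.13) and Tmem119 at 0.89 ± 0.32 (adjusted p = 0.18), all of them positive. DESeq2 called 3, which were Fcgr1, Mrc1 and Cx3cr1, beside 7.34% of all genes, and a stricter filter on low counts called 1, Fcgr1, beside 2.34%. With 1 library left out there were 0 to 3 calls: 3 without WT MPP+ 1 (Fcgr1, Mrc1 and Tmem119, adjusted p from 0.0243 to 0.0346), where 7.09% of all genes were called, and 1 each without WT PBS 3 (Fcgr1, 0.0425), without KO PBS 2 (Fcgr1, 0.0447) and without KO MPP+ 2 (Cx3cr1, 0.0477). The replicate block called 0 members, and over all genes it called 15 higher and 17 lower, beside 127 and 158 without the block. The median over the 31 members was 0.0055, beside -0.012 over all tested genes. A gene called for MPP+ in wild type and not in the knockout is therefore not shown to differ between them.

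Identity genes were set beside lysosomal and activation genes by the sum of FPKM over each role. The identity sum was 198, 174 and 127 in wild type with PBS, 111, 92.8 and 67.7 in wild type with MPP+, 71.6, 74.4 and 59.1 in the knockout with PBS, and 55.6, 44.6 and 35.3 in the knockout with MPP+. The lysosomal and activation sum was 664, 634 and 446, then 294, 299 and 238, then 452, 506 and 342, and then 229, 211 and 145, in the same order of groups. Their ratio was 3.5 ± 0.138 (SD, n = 3) in wild type with PBS, 3.13 ± 0.441 in wild type with MPP+, 6.30 ± 0.507 in the knockout with PBS and 4.32 ± 0.365 in the knockout with MPP+. The knockout libraries with PBS thus lay above all others, and the wild-type groups overlapped. A ratio over chosen members was given no test.

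The ratio followed single genes. Without Lyz2, the largest term of the lysosomal and activation sum, it was 1.24 ± 0.0595 in wild type with PBS, 1.63 ± 0.335 in wild type with MPP+, 1.56 ± 0.144 in the knockout with PBS and 2.02 ± 0.158 in the knockout with MPP+, so that the knockout with MPP+ was then the highest group. Without Cd68 it was 3.36 ± 0.141, 2.41 ± 0.175, 6.06 ± 0.493 and 3.23 ± 0.334 in the same order. Among the identity genes, leaving out Tyrobp gave 4.44 ± 0.25, 4.001 ± 0.621, 8.91 ± 1.16 and 5.55 ± 0.705. Leaving out Fcrls, a choice made after the values were seen, gave 4.75 ± 0.1997, 3.81 ± 0.462, 6.69 ± 0.599 and 4.46 ± 0.399, so that the knockout with PBS was still the highest group while the knockout with MPP+ overlapped with wild type with PBS.

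**Figure D5:**
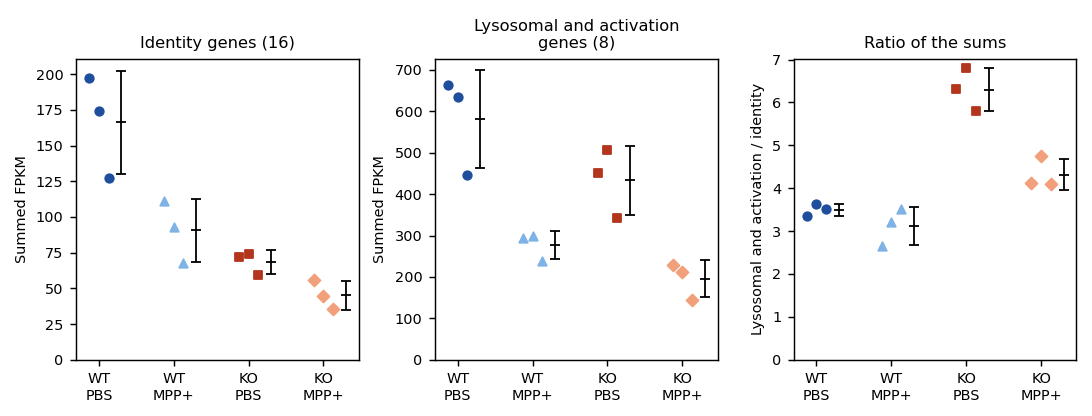
Sum of FPKM over the 16 identity genes (left) and the 8 lysosomal and activation genes (middle), and the ratio of the sums (right), in each library in the order of replicates 1 to 3, with the mean and SD (n = 3) of each group beside its points. All axes start at 0. The means of both sums are highest in wild type with PBS and lowest in the knockout with MPP+, and the ratio is highest in the knockout with PBS at 5.79 to 6.81. In the lysosomal and activation sum, wild type with PBS (446 to 664) overlaps with the knockout with PBS (342 to 506).

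A second list of 42 other myeloid genes, all tested, was counted the same way. This list and those below were, like the members, chosen with earlier results of these data known. Their counts are therefore not independent support for those of the members. With MPP+, 27 fell and 2 rose in wild type, beside 28.4% and 26.8% of all genes, and 25 fell and 3 rose in the knockout, beside 24.7% and 23.1%. The knockout was lower for 27 with PBS, beside 5.66%, and for 26 with MPP+, beside 9.0%. Among its highest genes were Spp1 and Axl, both of which other cell types also express. Spp1, the secreted phosphoprotein osteopontin, fell with MPP+, at -1.31 ± 0.17 and -0.87 ± 0.16, and Axl, a receptor kinase for dying cells, fell, at -0.62 ± 0.050 and -0.71 ± 0.051. Cd86, a co-stimulatory ligand on activated myeloid cells that was chosen after its values were seen, was at 0.543, 0.369 and 0.409 FPKM in wild type with PBS and 2.67, 2.04 and 2.27 with MPP+. Knockout values of Cd86 were 0.226, 0.258 and 0.185 with PBS and 1.04, 0.904 and 0.604 with MPP+. It rose with MPP+, at 2.35 ± 0.23 (adjusted p = 5.7e-06) and 1.84 ± 0.24 (adjusted p = 5.9e-05), as Cd68 did, and was lower in the knockout, at -0.93 ± 0.24 (adjusted p = 0.027) with PBS and -1.44 ± 0.23 (adjusted p = 0.0022) with MPP+. Olfml3, also chosen after its values were seen and expressed by microglia and other cells, was at 7.87, 8.19 and 7.41 FPKM in wild type with PBS and 1.59, 1.09 and 1.02 with MPP+. Knockout values of Olfml3 were 1.08, 1.31 and 1.51 with PBS and 0.649, 0.5598 and 0.594 with MPP+. Olfml3 was called for the difference between genotypes in the MPP+ effect, at 1.52 ± 0.22 (adjusted p = 0.014). It was the only 1 of the 42 genes so called, beside 1.35% of all tested genes, so the count says little about the list. This call of Olfml3 is from the fit without the replicate block, and the block left fewer such calls over all genes, as given above.

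Lysosome genes that most cells use moved the other way from most of the members. Of 24, 17 rose and 2 fell with MPP+ in wild type, beside 26.8% and 28.4% of all genes, and 17 rose and 1 fell in the knockout, beside 23.1% and 24.7%, with medians of 0.35 and 0.29. Ctsd, the protease cathepsin D and the highest of them, was at 761 ± 53.1 FPKM in wild type with PBS and rose by 0.56 ± 0.069 and 0.31 ± 0.069, and Psap, the precursor of the saposins, rose by 0.26 ± 0.075 and 0.21 ± 0.075, while Laptm4a was at 0.10 ± 0.048 (adjusted p = 0.10) and -0.018 ± 0.048 (adjusted p = 0.80). Between genotypes 3 were higher and 2 lower with PBS, beside 5.34% and 5.66% of all genes, and 1 was higher and 4 lower with MPP+, beside 7.87% and 9.0%.

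Of 8 ligands of microglial receptors, Csf1, the ligand of Csf1r, rose with MPP+ in wild type, at 0.33 ± 0.089 (adjusted p = 0.0080), was at -0.084 ± 0.089 (adjusted p = 0.47) in the knockout, and was higher in the knockout with PBS, at 0.33 ± 0.089 (adjusted p = 0.035). Il34, the other ligand of Csf1r, was at 5.05, 4.22 and 4.65 FPKM in wild type with PBS and 5.34, 4.12 and 4.17 with MPP+. Knockout values of Il34 were 9.51, 7.25 and 9.67 with PBS and 8.997, 10.99 and 11.1 with MPP+. Every knockout library lay above every wild-type library, with differences of 0.97 ± 0.14 (adjusted p = 0.0020) with PBS and 1.20 ± 0.14 (adjusted p = 0.00044) with MPP+. Cx3cl1, the fractalkine bound by Cx3cr1, fell with MPP+, at -0.31 ± 0.080 and -0.58 ± 0.080, and Cd200, which restrains myeloid cells, fell, at -2.52 ± 0.11 and -2.05 ± 0.11.

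Cd47, the signal that protects cells from being engulfed, rose with MPP+ in wild type, at 0.50 ± 0.14 (adjusted p = 0.012), was at -0.36 ± 0.14 (adjusted p = 0.060) in the knockout, and was lower in the knockout with MPP+, at -0.87 ± 0.15 (adjusted p = 0.0029). Apoe, a lipid carrier bound by Trem2, fell in the knockout, at -0.56 ± 0.14 (adjusted p = 0.0064), was at -0.22 ± 0.14 (adjusted p = 0.21) in wild type, and was lower in the knockout with MPP+, at -0.78 ± 0.14 (adjusted p = 0.0044). Tgfb1 and Ccl2 were called in no comparison, with MPP+ changes of 0.21 ± 0.18 and -0.22 ± 0.16 in wild type.

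Of 13 cytokines and chemokines of myeloid cells, 12 were tested, and 4 fell with MPP+ in each genotype, a share near the 28.4% and 24.7% of all genes that were called lower. The 3 highest were Il18, which fell, at -1.40 ± 0.29 and -1.08 ± 0.28, Cxcl16, which fell, at -1.16 ± 0.16 and -1.32 ± 0.17, and Ccl3, which was at 0.44 ± 0.37 (adjusted p = 0.34) and -0.47 ± 0.39 (adjusted p = 0.36). In the knockout 3 were lower with PBS and 4 with MPP+, beside 5.66% and 9.0% of all genes. Ccl3 was lower in the knockout with MPP+, at -2.22 ± 0.40 (adjusted p = 0.0040) and Cxcl16, at -0.59 ± 0.16 (adjusted p = 0.039) with PBS and -0.74 ± 0.16 (adjusted p = 0.011) with MPP+.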

How the data were processed

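RNA of 12 samples was analysed. Per the labels' protocols, total RNA came from TRIzol extraction and a SMARTER mRNA kit made the libraries. The authors deposited raw counts and FPKM per gene and library, per the file headers, and the submitters' processing notes name the builds GRCm38 and mm10. For the aligner, the counting tool and strand use, the answer is not given in the sources used here. Counts were fitted with edgeR 4.0.16 (R 4.3.3): filterByExpr (minimum count 10, minimum total 15), TMM scaling, a mean for each of 4 groups, 8 residual degrees of freedom, quasi-likelihood F tests (two-sided), and Benjamini-Hochberg adjustment over 21129 genes. Standard errors come from the F statistic. Sums and levels use FPKM as deposited. The script was tested on simulated data. Alternatives were RLE and upper-quartile scaling, no filter, a stricter filter (1 CPM in 3 libraries), DESeq2 1.42.0, limma 3.58.1 on log2(FPKM + 0.1 or 1), fits of 2 groups only, a replicate block, and each library left out. Members and lists were chosen with earlier results of these data known. Named are all members, the 3 highest genes of other lists, all ligands, and genes overlapping a member, and the text gives a part of these. Of 212 listed symbols 202 were matched to the table. Libraries held 64249029 to 69865569 counts, and, lacking molecular identifiers, reads are not independent molecules.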

Additional observations from a re-analysis of the deposited data

How the results depend on the processing

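Alternatives were run for the 123 fold changes of members that were called or are printed. The direction of every called one was the same in each. Directions changed for 5 values near 0 that were not called. Cx3cr1, MPP+ in knockout, was -0.0074 with RLE scaling, -0.061 with upper-quartile scaling, -0.0075 in DESeq2, -0.11 and -0.033 in limma on log2(FPKM + 0.1) and log2(FPKM + 1), -0.17 with the replicate block, and -0.63 to 0.37 with 1 library left out. Gpr34, MPP+ in knockout, was -0.037 with upper-quartile scaling and -0.21 to 0.37 with 1 library left out. Fcgr1, MPP+ in knockout, was 0.070 and 0.045 in limma, 0.0068 with no filter, 0.0028 in 2 groups only, and -0.095 to 0.13 with 1 library left out. Fcgr2b, MPP+ in wild type, was 0.041 and 0.015 in limma, 0.0036 in 2 groups only, 0.0050 with the replicate block and -0.14 to 0.14 with 1 library left out, and, MPP+ in knockout, 0.042 and 0.0056 in limma and -0.32 to 0.23 with 1 library left out.

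Members called between genotypes ranged from 6 to 19 with PBS and from 11 to 19 with MPP+ with 1 library left out. A fit of the 2 MPP+ groups alone called 12, where 980 of 19190 genes were called lower. For the difference between genotypes in the MPP+ effect, DESeq2 called 3, the stricter filter 1, and fits with 1 library left out 0 to 3. The cause of these shifts was not tested. The ratio of lysosomal and activation genes to identity genes, in the order wild type with PBS, wild type with MPP+, knockout with PBS and knockout with MPP+, was 2.08, 1.82, 3.54 and 2.44 in TMM-scaled CPM, 4.44, 4.001, 8.91 and 5.55 without Tyrobp, and 1.24, 1.63, 1.56 and 2.02 without Lyz2. Without Cd68 it was 3.36, 2.41, 6.06 and 3.23, and without Fcrls, chosen after seeing the data, 4.75, 3.81, 6.69 and 4.46. Upper-quartile scaling moved the median of all genes in wild type with MPP+ from -0.038 to -0.13. Deviations of same-numbered samples had correlations of -0.019 to 0.060 over all genes, and the labels do not say that a number marks a shared culture, so the numbers are not treated as pairs. Replicate 3 was nevertheless the lowest for most members in each group, and Y-linked sums were 5.67 and 6.18 FPKM in replicate 1 of both knockout groups and 18.3 to 19.3 in the other knockout libraries. The replicate block called 28, 24, 19, 22 and 0 members in the 5 comparisons, beside 27, 19, 16, 19 and 0. Over all 21129 genes it called 5755, 4951, 1269 and 1943 lower in the first 4, beside 6011, 5212, 1195 and 1902. For the interaction it called 15 genes higher and 17 lower, beside 127 and 158. It added calls for Irf8 and Cd14 (MPP+ in wild type), Irf8, P2ry13, Tmem119, Cd53 and Trem2 (MPP+ in knockout), Aif1, Tyrobp and C1qa (knockout with PBS), and Aif1, Lyz2 and Ly86 (knockout with MPP+), with adjusted p from 0.00294 to 0.0496, and lost that of Itgam in wild type (0.0553). Depth limits Siglech, Cd163, Mrc1 and Gpr34.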
